A study of Homo sapiens with 18 samples.

Results

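The genes described here encode the histone acetyltransferases and TIP60 cofactors that MYC is known to bind. They are TRRAP, EP400, KAT5, KAT2A, RUVBL1, RUVBL2, ACTL6A, DMAP1, EP300 and CREBBP, 10 of the 19974 protein-coding genes on chromosomes 1 to 22 and X. They were chosen by name, and a MAX peak was counted for a gene when its summit lay inside the gene or within 2500 bp of either outer end. The study mapped MAX by chromatin immunoprecipitation with a mouse reference genome in U2OS, a human osteosarcoma line. In all groups endogenous MYC was knocked out and replaced by a Dox-inducible (doxycycline) transgene, MYC-WT, MYC-3A or MYC-7A. Each form was studied after 24 h with Dox at 1 µg/ml or with PBS in its place, with 2 MAX immunoprecipitations and 1 input per condition, 18 libraries in all, and 10% mouse NIH3T3 cells were added to the chromatin. The sources do not say whether each MYC form is 1 clone. They name a MAX antibody in one place and anti-FLAG in another, so the target is given here as MAX, the name in the sample titles.

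Results rest on 3 deposited peak lists, 1 per MYC form, with 34622 peaks for WT, 27294 for 3A and 25159 for 7A. None of them separates Dox from PBS or one replicate from the other, so every value below belongs to 1 list, has no replicate check, and allows no test between MYC forms. A peak list holds no expression data, so neither the cell line nor the loss of MYC could be checked in it. The depth of the libraries is unknown. Fold enrichment is the ratio of treatment signal to background at a summit, as the authors' peak caller gave it. Each list is named with a plus and a minus sign of its MYC form, and the sources do not say whether Dox and PBS libraries were pooled or one served as the control of the other. The background may therefore be input, local signal or MAX signal without Dox, and fold enrichment has to be read with that limit. Since it is scaled within its own list, peaks are set side by side by rank: a rank of 5% means that 5% of the peaks of that list are as strong or stronger.

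MAX binds DNA as a partner of MYC, at E-box sequences such as CACGTG, and the pair recruits enzymes that acetylate histones and open chromatin. TRRAP is the large scaffold through which MYC reaches acetyltransferases. It sits in TIP60, the complex around the acetyltransferase KAT5 and the ATPase EP400, and in SAGA, the complex around the acetyltransferase KAT2A (GCN5). RUVBL1 and RUVBL2 are paired ATPases of TIP60 and of the INO80 and SRCAP remodelers, ACTL6A is an actin-related subunit, DMAP1 is a TIP60 and SRCAP subunit, and EP300 and CREBBP are the paralogous acetyltransferases p300 and CBP.

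Promoter sequences came from RefSeq (GRCh38.p14), as windows of 300 bases from 250 before to 50 after a transcription start, 5′ to 3′ on the strand of the gene. Of the 10 genes 8 had an entry, with 11 windows between them, and TRRAP and ACTL6A had none. Both strands were searched for the E-box CACGTG, for CATGTG or CACATG, for CACGCG or CGCGTG, and for any CANNTG, which includes the first 2 of these. Capitals below mark every match. The windows shown are KAT5, which alone holds CACGTG, both starts of RUVBL2, between which the summit differs by list, the inner start of RUVBL1, with the strongest WT peak of the 10 genes, KAT2A, whose peak is in the WT list alone, and the outer start of CREBBP, which by fold enrichment ranked stronger in both mutant lists than in WT.
KAT5 (chr11:65712002-65712301, plus strand): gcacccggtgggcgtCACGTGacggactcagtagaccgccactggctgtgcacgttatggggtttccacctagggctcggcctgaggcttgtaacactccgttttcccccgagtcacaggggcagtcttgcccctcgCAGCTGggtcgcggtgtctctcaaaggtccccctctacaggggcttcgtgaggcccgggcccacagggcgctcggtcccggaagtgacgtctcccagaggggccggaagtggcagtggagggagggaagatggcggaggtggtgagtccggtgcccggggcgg
RUVBL2, outer start (chr19:48993198-48993497, plus strand): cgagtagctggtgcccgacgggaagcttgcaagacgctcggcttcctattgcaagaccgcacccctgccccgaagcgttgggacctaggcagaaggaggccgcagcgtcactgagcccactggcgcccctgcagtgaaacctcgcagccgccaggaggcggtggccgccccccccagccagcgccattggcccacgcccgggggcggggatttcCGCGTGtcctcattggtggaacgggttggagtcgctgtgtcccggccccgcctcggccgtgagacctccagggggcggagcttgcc
RUVBL2, inner start (chr19:48993637-48993936, plus strand): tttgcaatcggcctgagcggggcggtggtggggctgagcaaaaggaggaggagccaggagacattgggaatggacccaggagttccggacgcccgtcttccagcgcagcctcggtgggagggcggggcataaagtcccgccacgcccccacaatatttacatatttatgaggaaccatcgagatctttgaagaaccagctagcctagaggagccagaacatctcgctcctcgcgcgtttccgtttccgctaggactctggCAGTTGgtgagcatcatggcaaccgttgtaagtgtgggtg
RUVBL1, inner start (chr3:128123763-128124062, minus strand): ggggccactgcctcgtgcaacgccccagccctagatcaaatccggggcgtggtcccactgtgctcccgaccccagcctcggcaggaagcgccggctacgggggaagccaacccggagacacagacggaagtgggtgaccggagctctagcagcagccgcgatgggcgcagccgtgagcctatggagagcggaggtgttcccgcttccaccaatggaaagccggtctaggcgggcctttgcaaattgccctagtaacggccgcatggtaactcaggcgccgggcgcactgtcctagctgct
KAT2A (chr17:42121318-42121617, minus strand): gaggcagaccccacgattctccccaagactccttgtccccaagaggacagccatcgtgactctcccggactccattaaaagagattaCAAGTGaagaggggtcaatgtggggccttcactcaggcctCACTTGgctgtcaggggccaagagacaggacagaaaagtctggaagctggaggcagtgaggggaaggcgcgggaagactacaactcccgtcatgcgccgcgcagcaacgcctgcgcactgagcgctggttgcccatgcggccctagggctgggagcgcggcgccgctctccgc
CREBBP, outer start (chr16:3880664-3880963, minus strand): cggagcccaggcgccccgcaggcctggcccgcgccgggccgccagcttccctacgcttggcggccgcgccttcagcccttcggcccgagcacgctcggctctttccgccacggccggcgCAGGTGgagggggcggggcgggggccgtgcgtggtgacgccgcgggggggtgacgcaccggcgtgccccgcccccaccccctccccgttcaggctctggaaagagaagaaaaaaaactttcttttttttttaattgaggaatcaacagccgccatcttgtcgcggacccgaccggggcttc

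CACGTG was found in 1 of the 11 windows, CACGCG or CGCGTG in 1, CATGTG or CACATG in none, and CANNTG in 6. Among all 35116 RefSeq windows of this length, 7.26% held CACGTG, 11.4% CACGCG or CGCGTG, 11.1% CATGTG or CACATG and 68.7% CANNTG. The match in KAT5 lay close to its summits: the middle of CACGTG lay 4.5 bp from the WT summit, 10.5 bp from the 3A summit and 9.5 bp from the 7A summit. In RUVBL2 the CGCGTG of the outer window lay 35.5 bp from the 3A summit and 480.5 bp from the WT summit, while the CAGTTG of the inner window lay 4.5 bp from the WT summit and 34.5 bp from the 7A summit. KAT2A held CACTTG at 35.5 bp and CAAGTG at 75.5 bp from its WT summit. Neither the inner RUVBL1 window nor that of EP400 held any of these motifs, and summits of all 3 lists lay in both. A match is a description of the sequence and not a mapped binding site. Beside this, a WT summit lay in the window for 53.2% of the 1847 protein-coding windows with CACGTG and for 26.0% of the 20309 without, and the mutant lists gave 52.2% and 28.0% (3A) and 53.3% and 27.4% (7A).

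All 10 genes had a MAX peak in the WT list, and 9 had one in the 3A list and in the 7A list. KAT2A was the gene without a mutant peak. By the same rule 70.8% of all protein-coding genes had a peak in WT, 67.7% in 3A and 66.7% in 7A, and 65.7% had one in all 3 lists. Long genes offer more room: of protein-coding genes of at least 100 kb, the class of TRRAP, EP400 and CREBBP, 90.4% had a WT peak, against 48.8% of those under 10 kb, the class of KAT5, KAT2A and DMAP1. Counting summits within 2500 bp of an outer end alone, the 10 genes still gave 10, 9 and 9, where all protein-coding genes gave 63.7%, 61.0% and 60.2%. At these genes lay 17 peaks of the WT list, 13 of 3A and 12 of 7A, and each of these mutant peaks lay on one of the WT peaks. Conversely, 13 of the 17 WT peaks were overlapped by a 3A peak (76.5%, 95% Clopper-Pearson interval 50.1 to 93.2) and 12 by a 7A peak (70.6%, 44.0 to 89.7), beside 74.0% and 69.9% of all WT peaks. These intervals cover counting error only and treat peaks as independent, although 6 of the 17 WT peaks lay at RUVBL1. The WT peaks without a partner were that of KAT2A and narrow peaks inside RUVBL1, so these shares lean on 1 gene.

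**Figure D1:**
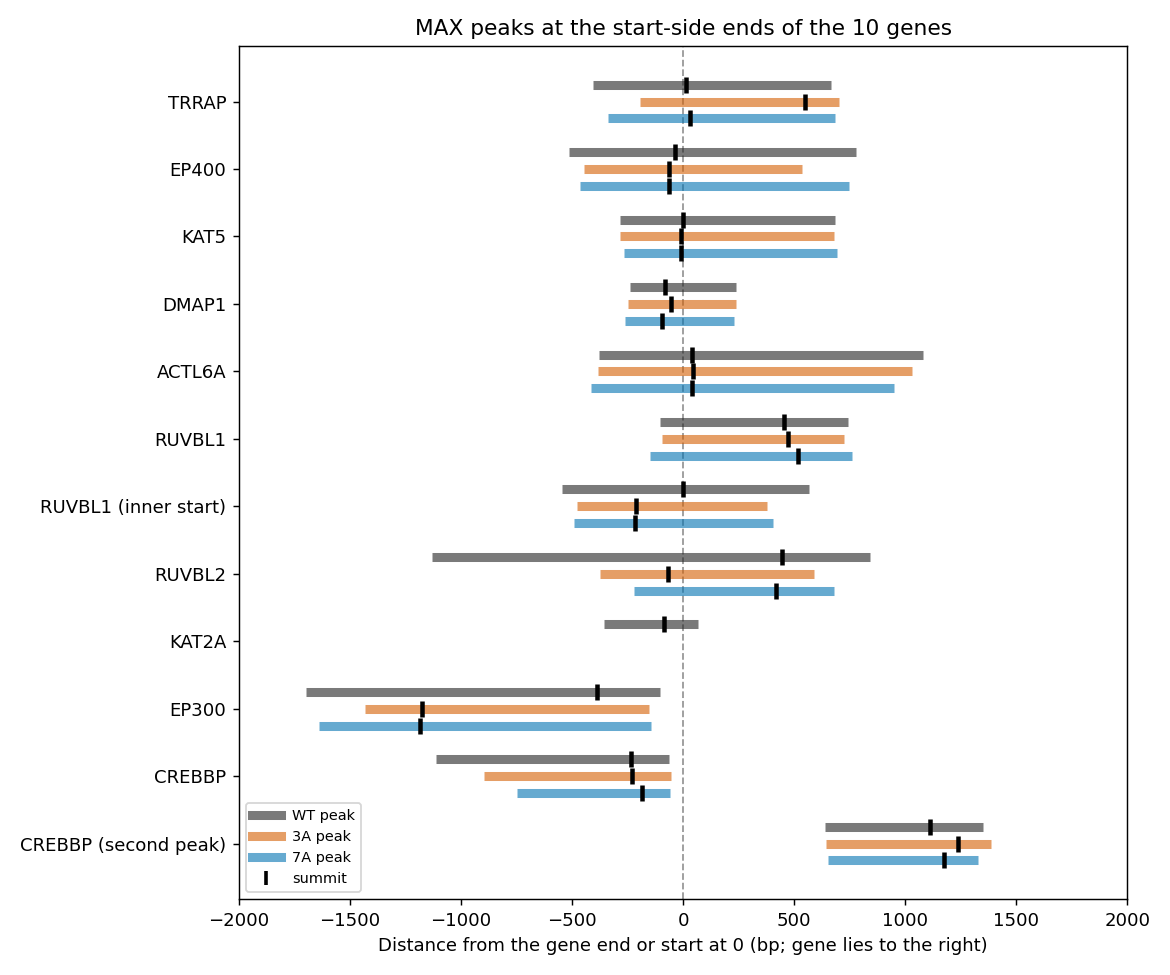
Position of MAX peaks (bars) and summits (black ticks) in the WT, 3A and 7A lists, in bp from the start of each gene, or from its lower-coordinate end for TRRAP and ACTL6A, with the gene to the right. RUVBL1 is drawn at its outer and inner starts, CREBBP has its second peak in a row of its own, and the downstream peak of KAT5 and the further inner peaks of RUVBL1 are not drawn. Bars of the 3 lists overlap in every row except that of KAT2A, which has a WT bar alone, while the summits of TRRAP (3A), RUVBL2 (3A) and EP300 (3A and 7A) lie over 500 bp from the WT summit.

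KAT5, the catalytic subunit of TIP60 (gene ID 10524, hg38 chromosome 11, 65712018 to 65719604), carried one of the strongest peaks of the set in every list. It spanned 65711732 to 65712700 in WT, 969 bp wide, and 962 bp in 3A and 961 bp in 7A, with all 3 summits within 9 bp of the outer start and 237 to 243 bp before the start used for the window printed above. Its fold enrichment was 35.0 in WT (rank 7.27%), 46.4 in 3A (2.14%) and 20.1 in 7A (18.3%). A second peak lay beyond the other end of the gene, 2 to 16 bp from the start-side end of RNASEH2C, a ribonuclease H2 subunit gene on the opposite strand, in WT at 65719895 to 65720972. It ranked 34.6% in WT, 27.7% in 3A and 26.0% in 7A, and was 1078 bp wide in WT against 615 bp and 610 bp. Since RNASEH2C ends so close to it, this peak cannot be given to KAT5 alone.

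EP400, the ATPase of the same complex (gene ID 57634, chromosome 12, 131949942 to 132080460), had 1 peak in each list. It covered 131949430 to 131950721 in WT, with summits 36 bp (WT) and 63 bp (3A and 7A) before the start. The WT peak had a fold enrichment of 32.8 (rank 8.32%), the 3A peak 23.3 (12.9%) and the 7A peak 15.3 (30.5%). The peak was 1292 bp wide in WT, 983 bp in 3A and 1215 bp in 7A.

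TRRAP (gene ID 8295, chromosome 7, 98878532 to 99013241) had 1 peak, at its lower-coordinate end, in each list. Its fold enrichment of 15.1 in WT ranked at 32.1%, against 8.44 in 3A (68.7%) and 7.75 in 7A (74.2%). Both mutant values thus fell in the weaker part of their lists and the WT value in the stronger part. The WT peak covered 98878127 to 98879198, with its summit 11 bp inside the gene. In 3A the summit lay 547 bp inside, 536 bp from the WT summit, and in 7A 31 bp inside, although the bars overlapped by 860 bp and 1004 bp.

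DMAP1 and ACTL6A each had 1 peak per list, at nearly the same place in all 3. The DMAP1 peak (gene ID 55929, chromosome 1, 44213471 to 44220673) was narrow, 479 bp in WT (44213231 to 44213709), 487 bp in 3A and 492 bp in 7A, with summits 56 to 97 bp before the start. It ranked at 63.6% in WT with a fold enrichment of 8.51, at 33.9% in 3A with 14.2 and at 75.2% in 7A with 7.63. ACTL6A (gene ID 86, chromosome 3, 179562926 to 179588407) had one of the wide peaks, 1462 bp in WT (179562545 to 179564006), 1418 bp in 3A and 1361 bp in 7A. Its WT and 7A summits fell on the same base and the 3A summit lay 8 bp away. It ranked 18.1% in WT (fold enrichment 21.8), 28.2% in 3A (15.8) and 48.2% in 7A (11.4).

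RUVBL1 had the most peaks of the set (gene ID 8607, chromosome 3, 128064785 to 128153914): 6 in WT, 3 in 3A and 2 in 7A. As many as 6 WT peaks were found at 2.6% of all protein-coding genes. The strongest WT peak lay at the inner start, 128123245 to 128124356, with a fold enrichment of 39.1 and a rank of 5.59%, the strongest peak of the 10 genes in that list. There the 3A peak had 18.7 (20.1%) and the 7A peak 27.1 (9.44%). The WT summit lay 2 bp before this start, and the mutant summits 211 bp (3A) and 217 bp (7A) before it.

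At the outer start of RUVBL1 a peak stood in all 3 lists, where WT had a fold enrichment of 21.3 (18.8%), 3A had 24.0 (12.04%) and 7A had 18.4 (21.6%). This was the strongest 3A peak of the gene, and its summits lay 454 to 516 bp inside RUVBL1. They lay closer, 21 to 83 bp, to the start-side end of EEFSEC, the selenocysteine elongation factor gene on the opposite strand. This peak, which gives RUVBL1 its 3A rank, therefore cannot be given to RUVBL1 alone. The other 4 WT peaks were narrow ones inside the gene, 238 to 370 bp wide, ranked between 38.002% and 82.1%. Of these, 1 had a 3A partner (128095257 to 128095626 in WT) and none had a 7A partner. The peak nearest the far end of RUVBL1, at 128068192 to 128068429, also lies inside SEC61A1, and the one at 128075603 to 128075851 lies 54 bp from an end of RUVBL1-AS1, so neither belongs to RUVBL1 alone.

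RUVBL2 (gene ID 10856, chromosome 19, 48993448 to 49015995) had the widest WT peak of the set, 1973 bp (48992318 to 48994290). It reached across both starts and the start-side end of GYS1, the muscle glycogen synthase gene on the opposite strand, so this peak cannot be given to RUVBL2 alone. In 3A it was 965 bp wide and in 7A 902 bp, less than 0.5 times the WT width in each (0.489 and 0.457). The WT and 7A summits lay 8 bp after and 22 bp before the inner start, and the 3A summit 69 bp before the outer start, 516 bp from that of WT. The 3A summit was as near to GYS1, 70 bp from its start-side end. The WT peak had a fold enrichment of 23.3 (rank 16.3%), the 3A peak 14.98 (30.8%) and the 7A peak 11.1 (49.6%).

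KAT2A, the SAGA acetyltransferase (gene ID 2648, chromosome 17, 42113111 to 42121367), had a single peak, in WT, at 42121301 to 42121722. It was 422 bp wide, with a summit 85 bp before the start, a fold enrichment of 11.2, a rank of 47.4% and a −log10 q of 97.8. The nearest summit in the 3A list lay 33.7 kb away and in the 7A list 62.9 kb away. WT peaks without any mutant partner are common at that rank. Among the 3462 WT peaks ranked between 40% and 50%, 21.95% (95% Clopper-Pearson interval 20.6 to 23.4) had none, beside 22.9% of the whole list. Among all genes with a WT peak by the rule used here, 4.2% had no peak in either mutant list.

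EP300 and CREBBP, the paralogous acetyltransferase genes, differed in how their peaks ranked across the lists. At EP300 (gene ID 2033, chromosome 22, 41092592 to 41180077) the peak lay upstream of the start, at 41090893 to 41092486 in WT. It ranked 43.3% in WT (fold enrichment 12.04), 64.1% in 3A (9.04) and 84.1% in 7A (6.55), the weakest 7A rank among the strongest peaks of the 10 genes. Its summit lay 387 bp before the start in WT and 1176 bp and 1184 bp before it in 3A and 7A, so that the mutant summits were within 8 bp of each other and 789 and 797 bp from that of WT.

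CREBBP (gene ID 1387, chromosome 16, 3725054 to 3880713, minus strand) had a peak just outside its start, at 3880775 to 3881827 in WT. It ranked 34.8% in WT with a fold enrichment of 14.2, 5.24% in 3A with 33.9 and 5.37% in 7A with 34.5. It was 1053 bp wide in WT, 842 bp in 3A and 690 bp in 7A, with summits 185 to 237 bp before the outer start. A second CREBBP peak inside the gene, at 3879365 to 3880073 in WT, was weak in all 3 lists, with ranks of 94.1%, 84.9% and 98.9%.

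**Figure D2:**
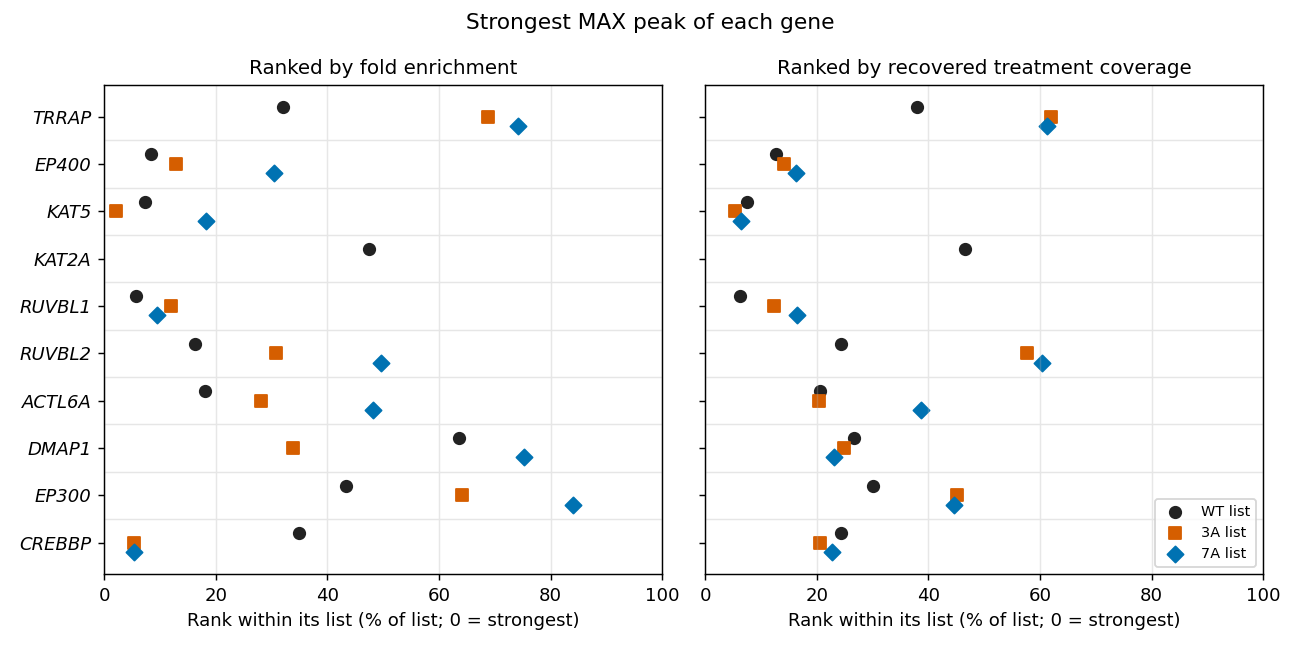
Rank of the strongest MAX peak of each gene within the WT, 3A and 7A lists (0% is the strongest of the list), by the deposited fold enrichment (left) and by treatment coverage recovered from the deposited values (right). On the left CREBBP lies near 5% in both mutant lists against 34.8% in WT, while on the right its 3 points lie between 20.5% and 24.3%, and TRRAP, RUVBL2 and EP300 lie further right in both mutant lists than in WT in both panels. On the left the 3A point of RUVBL1 is its outer-start peak, and all its other points are its inner-start peak.

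Fold enrichment depends on the background at a site, whichever libraries supplied it, as well as on the treatment signal, and both could be solved from a peak's fold enrichment together with its −log10 p. Coverage is the height of stacked fragments at the summit, on a scale of its own in each list, so again ranks are given. The outer CREBBP peak had a treatment coverage of 254.8 over a background of 17.0 in WT, 171.6 over 4.09 in 3A and 236.0 over 5.87 in 7A. By coverage it ranked 24.3%, 20.5% and 22.7% in the 3 lists, a spread far smaller than by fold enrichment. DMAP1 had 237.4 over 27.0 in WT, 155.0 over 10.0 in 3A and 234.0 over 29.8 in 7A, and coverage ranks of 26.6%, 24.8% and 23.1%. KAT5 had 524.2 over 14.0, 323.9 over 6.0 and 449.0 over 21.4, and coverage ranks of 7.52%, 5.4% and 6.34%. Within its own list, where 0% is the highest background, the site of CREBBP ranked 26.1% in background in WT, against 89.3% in 3A and 90.2% in 7A. At RUVBL2, which ranked weaker by fold enrichment in both mutant lists, the background ranked 66.6%, 82.8% and 66.3%. The part of the background in the rank differences was not tested.

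For TRRAP, RUVBL2, EP300, RUVBL1 and EP400 the mutant ranks were weaker than WT by coverage as well. So were those of 71.3% (3A) and 75.0% (7A) of all genes, with median shifts over all genes of 4.30 and 6.21 percentage points. EP400 shifted less than these medians, by 1.45 points in 3A and 3.44 in 7A. By coverage the TRRAP peak ranked 37.95% (WT), 62.0% (3A) and 61.3% (7A). RUVBL2 had 24.2%, 57.7% and 60.4%, and EP300 had 29.99%, 45.1% and 44.6%. RUVBL1 at its inner start had 6.14%, 12.3% and 16.5%. ACTL6A had 20.5% in WT, 20.4% in 3A and 38.7% in 7A, and EP400 12.7%, 14.2% and 16.2%.

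By fold enrichment, the order of the strongest peaks in WT was RUVBL1, KAT5, EP400, RUVBL2, ACTL6A, TRRAP, CREBBP, EP300, KAT2A and DMAP1. In 3A it was KAT5, CREBBP, RUVBL1, EP400, ACTL6A, RUVBL2, DMAP1, EP300 and TRRAP, and in 7A CREBBP, RUVBL1, KAT5, EP400, ACTL6A, RUVBL2, TRRAP, DMAP1 and EP300. RUVBL1 stands in the 3A order by its outer-start peak, and in those of WT and 7A by its inner-start peak. With 1 list per form, it cannot be said which neighbours in these orders differ beyond their error. Over the genes with a peak, the strongest one had a median rank of 25.1% (WT), 28.2% (3A) and 48.2% (7A), beside 25.3%, 29.0% and 31.5% over all protein-coding genes with a peak. By coverage the medians were 24.3%, 20.5% and 23.1%, beside 25.4%, 30.9% and 32.6%. By −log10 q they were 23.5%, 21.5% and 39.4%, beside 24.8%, 29.5% and 31.5%. The median in 7A was thus weaker than that of all genes by fold enrichment and by −log10 q, and not by coverage.

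Of the 9 genes with a peak in each pair of lists, 6 ranked weaker in 3A than in WT by fold enrichment and 8 ranked weaker in 7A, beside 58.7% and 64.2% of all such genes. The median shift was 6.45 percentage points for 3A and 22.1 for 7A, beside 2.65 and 4.71 over all genes. The 3A median is the value of RUVBL1, and sets its WT peak at the inner start against its 3A peak at the outer start. Site by site, the 3A shift of RUVBL1 was 14.5 points at the inner start and -6.75 at the outer start. Both mutant lists are compared with the same WT list, so that the 3A and 7A counts and shifts are not independent. The largest shifts to a weaker rank were those of TRRAP, 36.6 points in 3A and 42.2 in 7A, and EP300, 20.9 and 40.8. Stronger ranks in a mutant list were those of CREBBP, with -29.6 points in 3A and -29.5 in 7A, DMAP1, with -29.7 in 3A, and KAT5, with -5.13 in 3A. Over all genes the middle 80% of shifts ran from -18.4 to 30.2 points in 3A and from -16.4 to 32.6 in 7A. Outside that range lay TRRAP, CREBBP and DMAP1 in 3A, and TRRAP, EP300, RUVBL2 and CREBBP in 7A. By coverage, 5 of 9 ranked weaker in 3A and 6 of 9 in 7A, beside 71.3% and 75.0% of all genes, while by −log10 q the counts were 6 and 8, beside 66.2% and 71.3%. Ranked by coverage, ACTL6A (3A), KAT5 (7A) and DMAP1 (7A) changed side. At gene ends alone RUVBL1 changed side in 3A, and with lists of equal length DMAP1 did in 7A.

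**Figure D3:**
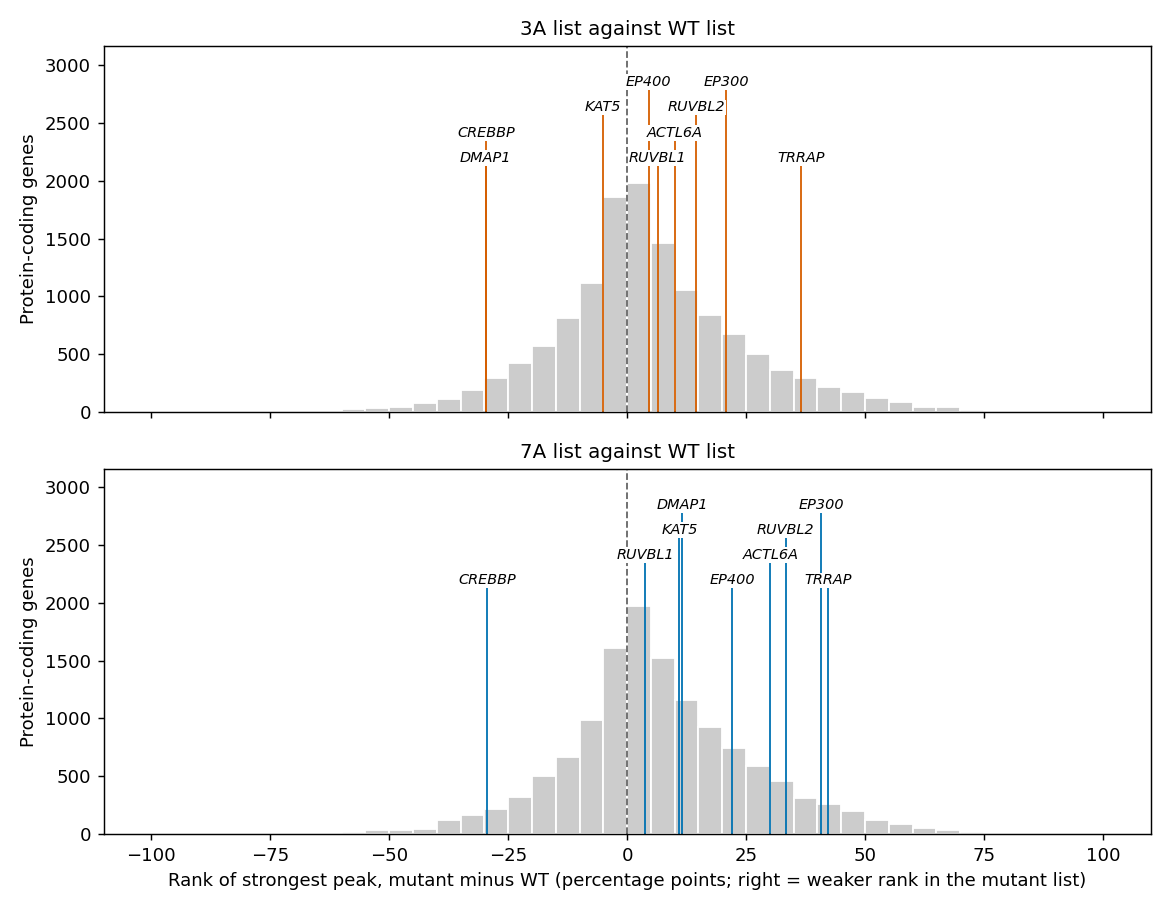
Difference in the rank of the strongest peak by fold enrichment, mutant minus WT in percentage points, for all protein-coding genes with a peak in both lists (grey bars, 13417 genes for 3A and 13240 for 7A) and for the 9 named genes (coloured lines, whose heights carry no value). Lines to the right of 0 are weaker ranks in the mutant list: 6 of 9 in 3A and 8 of 9 in 7A. The 3A line of RUVBL1 sets its inner-start WT peak against its outer-start 3A peak.

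Most WT peaks had an overlapping mutant peak, while summits differed at some sites. Between WT and 3A the summits of 13 peak pairs lay a median of 26 bp apart, and between WT and 7A those of 12 pairs 28.5 bp apart, beside 14 bp over all pairs of each comparison. They lay over 100 bp apart in 5 of 13 pairs for 3A and 2 of 12 for 7A, beside 12.8% and 14.1% of all pairs. Summits over 500 bp apart were found at TRRAP, RUVBL2 and EP300 in 3A, 3 of 13 pairs, and at EP300 in 7A, 1 of 12, beside 3.55% and 3.87% of all pairs. The WT peaks of TRRAP, RUVBL2 and EP300 were 1072 to 1973 bp wide. ACTL6A and EP400 had WT peaks of 1462 and 1292 bp, and mutant summits 0 to 27 bp from that of WT. The shares of all pairs cover peaks of every width, and a link between width and summit distance was not tested. Mutant peaks were narrower than their WT partner in 11 of 13 pairs for 3A and 10 of 12 for 7A, beside 70.5% and 57.7% of all pairs. The strongest peaks of the genes had median widths of 1092 bp in WT, 962 bp in 3A and 961 bp in 7A, beside 552, 578 and 672 bp over all peaks. These are unlike sets, since weaker peaks were narrower. In WT the median width was 1137 bp at ranks of 0 to 10%, 790 bp at 20 to 30% and 353 bp at 90 to 100%.

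Other genes of the same complexes also carried MAX peaks in most cases. All 11 further TIP60 subunit genes examined had a peak in each list. The strongest in WT were EPC1 with a fold enrichment of 70.6, MBTD1, a histone reader, with 60.2, and MORF4L2 with 45.5. Of 27 further subunit genes of SAGA and of ATAC, a second KAT2A complex, 25 had a peak in WT, 24 in 3A and 23 in 7A. ZZZ3 (121.2), KAT14 (95.7) and TAF5L (68.7) had the highest WT values, and TADA2A and TAF9 had no peak in any list. SUPT3H, a SAGA subunit gene, shared with KAT2A a peak in WT alone (8.55, rank 63.3%), and ATXN7L3, of the SAGA deubiquitinase module, had none in 7A (83.6% in WT, 45.3% in 3A). All 11 other acetyltransferase genes and partners had a WT and a 3A peak and 10 had a 7A peak, with JADE2 (47.6), KAT6A (41.1) and JADE1 (40.8) in front in WT. KAT6B was the one without a 7A peak (64.4% in WT, 94.5% in 3A). The median rank of the strongest peak was 14.2%, 32.8% and 27.8% for the TIP60 genes, 14.5%, 16.0% and 21.2% for SAGA and ATAC, and 34.3%, 26.6% and 26.5% for the other acetyltransferases, in the order WT, 3A and 7A. These counts stand beside the shares of 70.8%, 67.7% and 66.7% over all protein-coding genes, and a peak by this rule can also belong to a neighbouring gene.

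**Figure D4:**
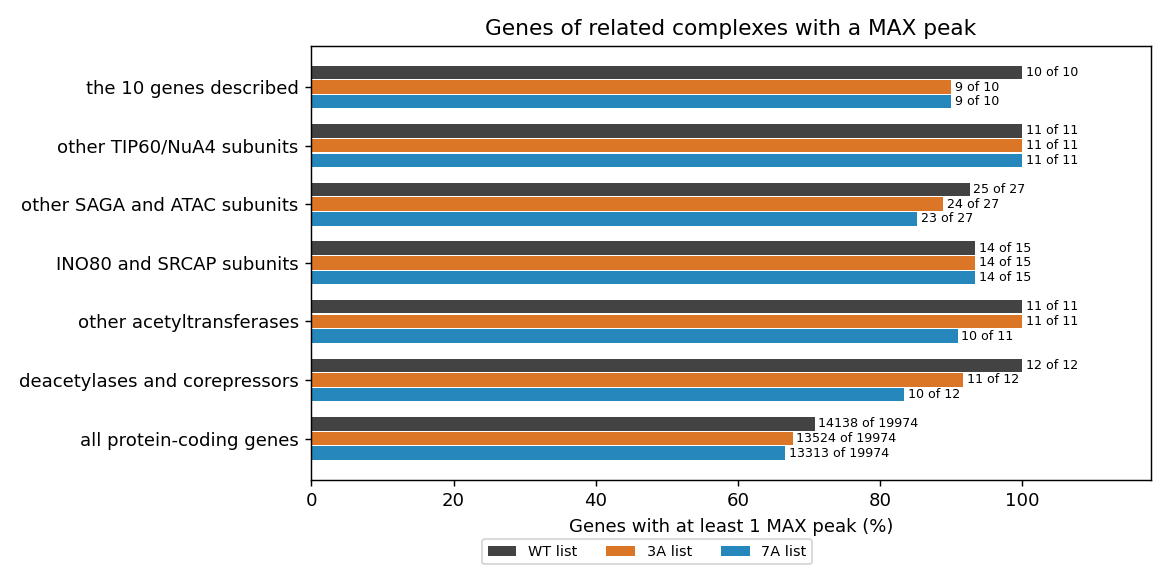
Share of genes with at least 1 MAX peak (summit in the gene or within 2500 bp of an outer end) in the WT, 3A and 7A lists, for the 10 genes described, 5 groups of related genes and all protein-coding genes, with counts at the bars. The 10 genes give 10, 9 and 9, and all protein-coding genes 70.8%, 67.7% and 66.7%.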

How the data were processed

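The labels describe 18 libraries of MAX immunoprecipitations and inputs, of which 3 peak lists, each for 1 MYC form, were analysed. Per the submitters' processing notes, the tools were MACS2, Bowtie2, Picard, SAMtools and cutadapt, with mm10, hg38 and hg19 as builds, and neither their roles nor versions are listed. Pooling of replicates, the control used for peak calling and any scaling by mouse reads are not given in the sources used here. The deposited lists follow the narrowPeak layout without a header: fold enrichment is a linear ratio by the authors' peak caller, with the authors' −log10 p and −log10 q beside it and a deposited score that equals the whole part of 10 times the −log10 q for 99.6% (WT), 99.8% (3A) and 99.6% (7A) of peaks. Positions were taken as hg38, since summits gathered at GRCh38.p14 gene starts, and are printed counting from 1.

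The 10 genes, the gene groups and the measures were chosen with earlier results of these data known. Gene ends came from RefSeq (GRCh38.p14), which matched every gene, and strand from its promoter table. Ranks use the fold enrichment within a list, with mean ranks for ties. Peaks overlapping by at least 1 bp were paired. Named are the 10 genes, of each further group the 3 genes with the highest WT fold enrichment and those lacking a peak in some of the lists, and genes ending within 2500 bp of a described summit; 1 gene that this rule names is not reported here. Treatment coverage T and background B at each summit were solved from (T + 1)/(B + 1) as the fold enrichment and the Poisson tail as −log10 p. Of coverages under 150, 91.3% in WT, 79.6% in 3A and 92.2% in 7A were whole multiples, within 0.02, of 1 step (0.696, 0.689 and 1.0). The steps were tested on simulated data. Software was SciPy 1.17.1, NumPy 2.4.6, pandas 2.3.3 and matplotlib 3.10.9 under Python 3.11.15.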

Additional observations from a re-analysis of the deposited data

How the results depend on the processing

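The counts of genes with a peak, in every group and list, stayed within 1.5 times of the reported count with gene ends of 2500 and 1000 bp, a −log10 q of at least 10 and lists cut to the shortest length. With gene ends of 1000 bp, the peaks at the 10 genes numbered 10 in WT, 8 in 3A and 8 in 7A, against 17, 13 and 12 by the main rule. The genes with a peak were then 10, 8 and 8. With summits within 100 bp as the criterion, 8 of 17 WT peaks had a 3A partner. By −log10 q, the median rank of the strongest peak was 23.5% (WT), 21.5% (3A) and 39.4% (7A), and it was 29.8%, 32.0% and 52.7% among peaks at protein-coding genes. By treatment coverage, an alternative chosen after seeing the data, it was 24.3%, 20.5% and 23.1%. With lists of equal length it was 34.5% in WT and 30.5% in 3A, where the lists themselves hold fewer weak peaks. Ranks of single genes moved beyond their counting interval in 101 of 140 cases. That interval treats a rank as a count and does not measure the error of a single peak's rank. The 7A list is the shortest, so its ranks could not move with lists of equal length. No paired analysis was possible because no list separates replicates. Depth is unknown, so that a missing peak, as at KAT2A, is not evidence that MAX is absent.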

Other observations

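Genes of 2 further groups carried MAX peaks. Of 15 subunit genes of INO80 and SRCAP, the remodelers that share RUVBL1 and RUVBL2 with TIP60, 14 had a peak in each list, led in WT by CFDP1 (fold enrichment 49.6), INO80E (48.7) and INO80 (45.8), the core ATPase. TFPT had none. Of all protein-coding genes, 70.8% had a peak in WT, 67.7% in 3A and 66.7% in 7A. Among 12 genes of deacetylases and their corepressors, the enzymes that oppose the acetyltransferases, 12 had a WT peak, 11 a 3A peak and 10 a 7A peak. HDAC3 ranked at 0.0347% of the WT list (175.1), at 3.11% in 3A (41.3) and at 16.9% in 7A (20.8). HDAC2 ranked at 0.459% in WT (92.99), 0.359% in 3A (84.6) and 0.0556% in 7A (161.2). SIN3B, a scaffold of deacetylase complexes, had a peak in WT alone (10.6, rank 50.4%), as KAT2A did, and HDAC8 had none in 7A.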
